A study of Mus musculus with 9 samples.

Results

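The 33 genes described here encode plasma proteins and metabolic enzymes for which the hepatocyte, the main cell of the liver, is the best known source. They were read in bulk RNA sequencing of mouse prostate tumours and their metastases. The members were taken as a list of gene symbols, without albumin and its relatives, and each symbol was matched to 1 Ensembl gene of the deposited count files. All 33 were found among the 47069 genes of each file. By role they comprise 6 apolipoproteins, 7 carriers and other secreted proteins, 4 coagulation genes, 6 serine protease inhibitors, 6 enzymes of amino acid and nitrogen metabolism, 2 enzymes of glucose production and 2 cytochromes P450. No library was labelled as liver, so the name of the list describes where these genes are usually expressed and not the tissue sampled.

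The study compared 3 primary prostate tumours with 3 proximal metastases, taken from the epididymal fat, and 3 distal metastases. All 3 groups came from C57BL/6 mice of about 9 to 10 months, with no treatment named. All were of the same genotype, so no wild-type tissue was included. It includes 1 copy of Ctnnb1 that lacks exon 3, a change known to make its product, beta-catenin, resistant to breakdown. The promoter that drives the recombination is not given in the sources used here. For the distal group 1 label names the diaphragm and another the lung, and "distal" is used throughout. The samples were matched within 3 mice, but which samples share a mouse is not given in the sources used here. Comparisons are therefore unpaired and treat the 9 libraries as independent, although they are matched within 3 mice. Their p-values weigh group differences against the spread between these libraries. The effect of the shared mice on them is not known.

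Hepatocytes secrete most proteins of the blood plasma, among them the apolipoproteins that carry lipids, the fibrinogen chains that form clots, and protease inhibitors that restrain enzymes released in inflammation. They also make glucose, break down amino acids and detoxify drugs. In liver these programmes depend on a small set of transcription factors, including HNF4, C/EBP and forkhead (FOXA) proteins. Some members are also expressed elsewhere: several apolipoproteins in the intestine and Pck1 in fat and kidney.

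Total counts were 28334730 to 40408723 per library. Levels are given as CPM, the count of a gene scaled to the size of its library, with library sizes adjusted by edgeR's TMM method. The scaling factor was 0.795 in primary 2 and 0.994 to 1.05 in the other 8 libraries. Libraries also differed in the levels of marker genes of other tissues, whose tissue content was not measured. Skeletal muscle markers summed to 712 and 979 CPM in distal 2 and 3 and to at most 7.96 CPM elsewhere. Adrenal cortex markers summed to 2979 CPM in distal 3 and to at most 9.21 CPM elsewhere, and seminal vesicle markers to 7484 CPM in primary 3. In bulk RNA, fewer cells of a type and less RNA per cell cannot be told apart.

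Most members were scarce in primary and proximal libraries and highest in 1 distal library. Of the 33 members, 27 had their highest level in distal 1, where 5.31% of all 18204 genes tested had theirs. These 27 genes summed to 378 CPM in distal 1, 77.0 CPM in distal 2 and 35.3 CPM in distal 3. Their sum was 21.8, 22.9 and 11.2 CPM in the primary libraries and 12.1, 37.7 and 14.3 CPM in the proximal ones. Distal 1 thus stood apart, distal 2 was above all 6 primary and proximal libraries, and distal 3 lay below proximal 2. Since these 27 were picked by their highest library, the sums describe the pattern and test nothing. Members at 1 CPM or more numbered 32, 26 and 14 in distal 1, 2 and 3, against 11, 8 and 7 in the primary and 8, 13 and 6 in the proximal libraries. Without distal 1, 20 of the 33 members were highest in distal 2 and 1, Itih4, in distal 3. Among all genes tested, 6.36% and 8.68% were highest there.

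**Figure D1:**
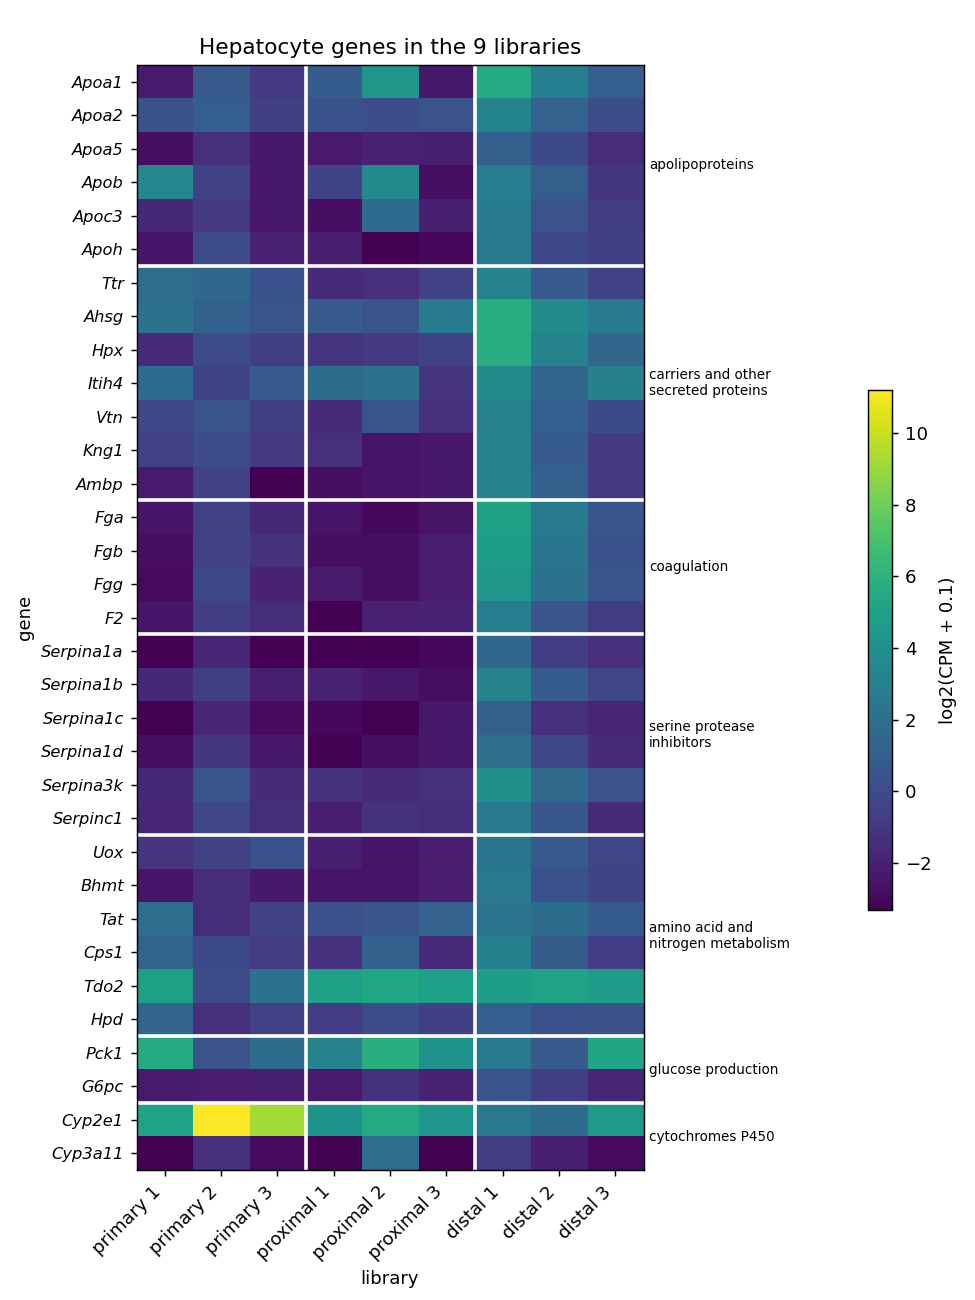
Level of each of the 33 members (rows, grouped by role) in the 9 libraries (columns), as log2(CPM + 0.1). The distal 1 column is the brightest for 27 members, whereas Cyp2e1 is brightest in primary 2, Hpd in primary 1, and Apob, Cyp3a11, Pck1 and Tdo2 in proximal 2.

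The 6 remaining members had other patterns. Cyp2e1 was highest in primary 2, Hpd in primary 1, and Apob, Cyp3a11, Pck1 and Tdo2 in proximal 2. Only 12 members reached 10 CPM in any library, and Cyp2e1 alone reached 100 CPM. A gene at 1 CPM before scaling holds 28.3 to 40.4 counts, so most members rest on few counts outside the distal libraries.

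Among the 4 coagulation genes, Fga, Fgb and Fgg separated every distal library from every other library, whereas F2, described below, did not. Fga, Fgb and Fgg encode the alpha, beta and gamma chains of fibrinogen, which assemble into 1 clotting protein. They lie beside each other on chromosome 3 (GRCm38): Fgg at 83007724 to 83015049, Fga at 83026076 to 83033627 and Fgb at 83040141 to 83049863. Fga was at 31.7, 6.21 and 1.40 CPM in distal 1, 2 and 3. It was at 0.0805, 0.624 and 0.203 CPM in primary 1, 2 and 3 and at 0.0783, 0.0255 and 0.0734 CPM in proximal 1, 2 and 3. Every distal library was above every other library, and the 3 proximal libraries held 7 Fga counts in all.

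Fgb followed the same order, with 27.7, 5.14 and 1.16 CPM in the distal libraries, 0.0536, 0.624 and 0.339 CPM in the primary ones and 0.0522, 0.0510 and 0.122 CPM in the proximal ones. Fgg held 20.4, 4.23 and 1.30 CPM in distal, 0.0268, 0.819 and 0.169 CPM in primary and 0.104, 0.0510 and 0.122 CPM in proximal libraries. For each of these genes distal 1, 2 and 3 were all above the other 6 libraries, with primary 2 the highest of those. The Fgg exons overlap those of Gm30097 on the other strand, and since the strand setting of the counting is not given, their reads cannot be told apart.

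The fold changes were large and uncertain. For distal against primary, the log2 fold change was 5.46 (SE 1.27) for Fga, 5.08 (SE 1.29) for Fgb and 4.71 (SE 1.32) for Fgg, with edgeR quasi-likelihood, Benjamini-Hochberg adjusted p values of 0.129, 0.146 and 0.165. For distal against proximal it was 7.71 (SE 1.44), 7.16 (SE 1.45) and 6.49 (SE 1.45), each at an edgeR adjusted p of 1.0. None passed the threshold of 0.05. Without distal 1 the distal against primary values were 3.69, 3.26 and 3.08, and the distal against proximal values 5.93, 5.32 and 4.85. With DESeq2, all 3 chains passed in distal against primary (adjusted p = 4.20e-05, 2.59e-04 and 1.96e-03) and in distal against proximal (1.85e-07, 2.52e-06 and 7.83e-05).

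The chains differed between distal 1 and 2 by similar ratios. Distal 1 exceeded distal 2 by 5.10 times for Fga (95% interval 4.46 to 5.85), 5.38 times for Fgb (4.65 to 6.26) and 4.81 times for Fgg (4.09 to 5.69). These exact binomial intervals cover counting error only, and they overlap. The ratios to distal 3 were 22.7 for Fga (16.7 to 31.6), 23.8 for Fgb (17.0 to 34.3) and 15.7 for Fgg (11.4 to 22.3), with wider intervals that also overlap. Per length, as CPM per kilobase of exon, distal 1 held 10.5 for Fga, 7.26 for Fgb and 9.73 for Fgg. The length, all annotated exons joined, was 3010, 3810 and 2093 bases. F2, which encodes prothrombin, the precursor of the clotting protease thrombin, was at 7.17, 1.31 and 0.465 CPM in the distal libraries. It was at 0.0805, 0.546 and 0.271 CPM in the primary and 0, 0.153 and 0.171 CPM in the proximal libraries, so that distal 3 lay below primary 2.

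**Figure D2:**
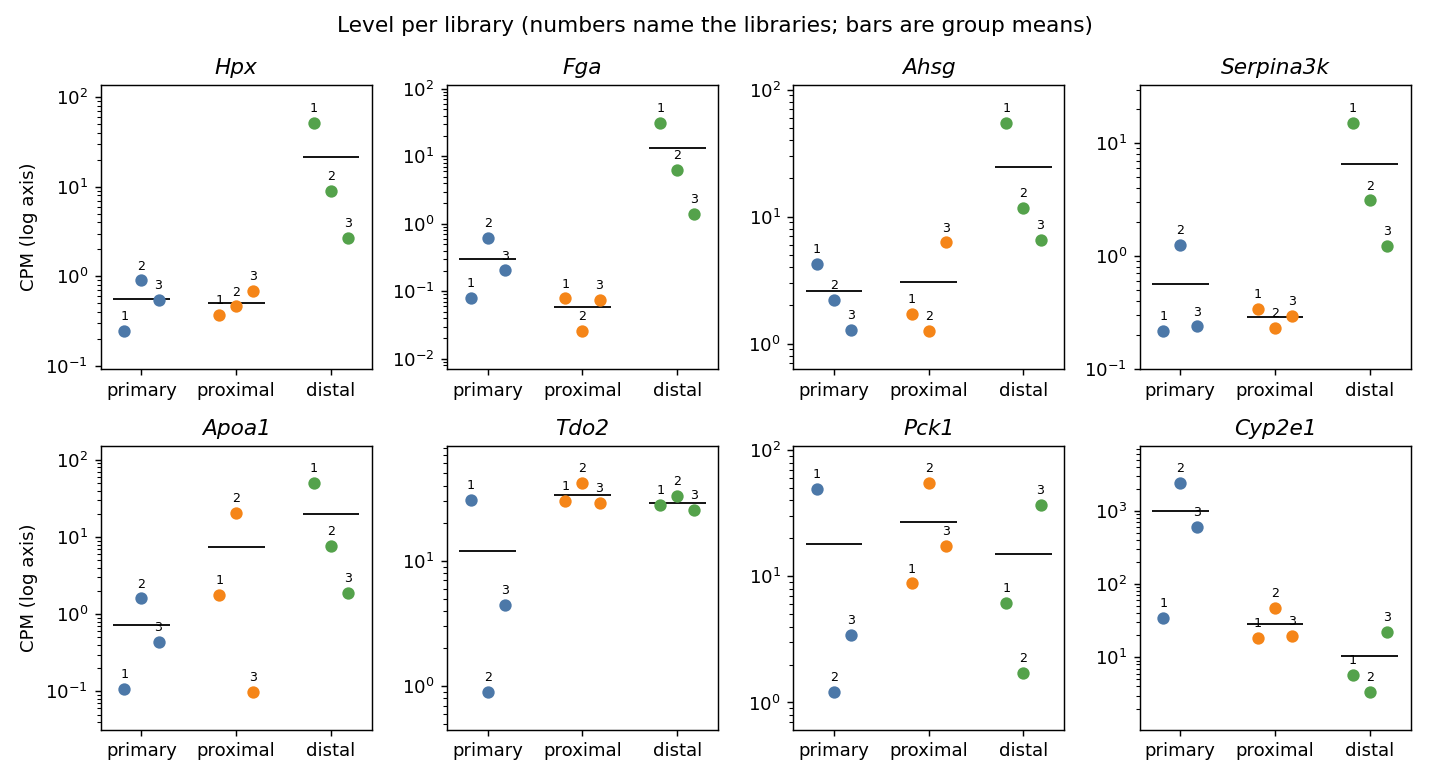
CPM of 8 members in each of the 9 libraries on a log axis; each point is 1 library, named by its number, colours mark the groups and horizontal bars are group means. Hpx, Fga, Ahsg, Serpina3k and Apoa1 share the order distal 1, distal 2, distal 3, while Cyp2e1 is highest in primary 2 and Tdo2 is low only in primary 2 and 3.

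Promoter sequence is shown for members whose first 250 bases before a RefSeq start hold TGTTTGC, a motif of forkhead (FOXA) proteins, because these genes belong to a liver programme in which FOXA proteins take part and because it was the motif found in most members of the 5 searched. RefSeq promoters (GRCm38.p6) were found for 28 of the 33 members. TGTTTGC was searched on both strands and found in 11 of those 28, namely Ahsg, Ambp, Apoa1, Apoa5, Apob, G6pc, Tdo2 and Serpina1a to Serpina1d, and in 4.30% of all 32851 promoters. A member was counted if any of its RefSeq promoters matched, whereas the percentage is over single promoters. A member with several promoters, such as Apoa5, thus had more chances to match. The motif to print was chosen after these counts were seen. Each window of 30 bases is turned so that the match, in capitals, reads TGTTTGC.
Apoa1, first match: cccgcagtttccTGTTTGCccactctgttt
Apoa1, second match: gtttgcccactcTGTTTGCccagcctcagg
Apoa5: ccctccacgtggTGTTTGCtcagaggaatt
Apob: acggcccgggccTGTTTGCttttccataca
Ahsg: ttccagagctgcTGTTTGCaaggattattt
Ambp: tgatgaccttggTGTTTGCtttgctcagcc
Serpina1a, Serpina1b and Serpina1c: ttagcccctctcTGTTTGCtctaccaataa
Serpina1d: tctctccctctcTGTTTGCtctaccaataa
Tdo2: tggggcacagctTGTTTGCtagcagggcgt
G6pc: tcaccctgaacaTGTTTGCatcaacctact

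The windows of Apoa1, which overlap, lie at chr9:46228530-46228559 and chr9:46228543-46228572 (both plus strand), and the matches start 88 and 75 bases before the RefSeq start. That of Apoa5 lies at chr9:46268521-46268550 (plus), 75 or 100 bases before either of its RefSeq starts. The others lie at chr12:7977545-7977574 (minus) for Apob, chr16:22891924-22891953 (plus) for Ahsg, chr4:63154170-63154199 (plus) for Ambp, chr3:81975892-81975921 (plus) for Tdo2 and chr11:101367563-101367592 (plus) for G6pc. RefSeq and GENCODE starts differ for some genes, and the windows of Ahsg, Ambp, G6pc, Serpina1b and Tdo2, 5 of the 12, lie within the GENCODE extent of the gene. In Apob, Ambp and Tdo2 the match is on the strand opposite to the gene, and in the others along it. Serpina1a, Serpina1b and Serpina1c carry the same 30 bases and Serpina1d shares 26 of them, all on the minus strand of chromosome 12, so these neighbouring copies are not separate finds. Their matches begin 53, 58, 59 and 48 bases before the start of Serpina1a, Serpina1b, Serpina1c and Serpina1d. Tdo2 carries the letters although its levels across the libraries had a different pattern, and none of the fibrinogen chains or Hpx carries them.

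The other motifs were searched in the same promoters and on both strands, and were counted in the same way. TGTTTAC, another forkhead variant, was in 3 of 28 members (Apoa2, Apoh and Cyp3a11) and in 3.17% of all promoters. The C/EBP motif TTGCNNAA was in 9 of 28 members, Fga, Fgb and Hpx among them, and in 9.56% of promoters. The HNF4 motif CAAAGTCCA was in 1 of 28 (Cyp3a11) and 0.384%, and TATAAA in 8 of 28 and 12.4%. A match describes the letters of the window and shows no binding.

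Carriers and other secreted proteins were the most abundant members in distal 1. Hpx encodes hemopexin, which binds free heme in plasma (chromosome 7, 105591613 to 105600137). It was at 52.4, 8.99 and 2.66 CPM in the distal libraries, 0.241, 0.897 and 0.542 CPM in the primary and 0.365, 0.459 and 0.685 CPM in the proximal ones. All distal libraries lay above the other 6. Its log2 fold change was 5.26 (SE 1.14, edgeR adjusted p = 0.120) against primary and 5.40 (SE 1.14, adjusted p = 1.0) against proximal libraries. Without distal 1 these values were 3.40 and 3.53.

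Ahsg encodes fetuin-A, a plasma protein that binds calcium phosphate (chromosome 16, 22891277 to 22899449). Distal 1, 2 and 3 held 55.1, 11.7 and 6.58 CPM. The primary libraries held 4.21, 2.22 and 1.29 CPM, and the proximal ones 1.72, 1.25 and 6.26 CPM. Distal 3 exceeded proximal 3 only narrowly. The log2 fold change was 3.24 (SE 0.99, edgeR adjusted p = 0.191) against primary and 2.99 (SE 0.98, adjusted p = 1.0) against proximal libraries, and 1.84 and 1.57 without distal 1. Gm30505 overlaps its exons on the other strand.

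Itih4 encodes a secreted protein of the inter-alpha-trypsin inhibitor heavy chain family. It departed from the shared order, with 11.6, 2.55 and 8.18 CPM in distal 1, 2 and 3. The primary libraries held 3.27, 0.702 and 1.59 CPM and the proximal ones 3.37, 4.31 and 0.367 CPM, so the groups overlapped. Its log2 fold change was 2.0 (SE 0.95, edgeR adjusted p = 0.309) against primary and 1.47 (SE 0.93, adjusted p = 1.0) against proximal libraries. Distal 3, where Itih4 came closest to distal 1, is the library with adrenal cortex markers, and their part in the result was not tested.

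The other carriers stayed below 10 CPM. Ambp (the precursor of alpha-1-microglobulin and bikunin), Kng1 (kininogen), Vtn (vitronectin, a cell adhesion protein) and Ttr (transthyretin, a thyroxine and retinol carrier) were at 8.45 to 9.07 CPM in distal 1, at 1.71 to 2.09 CPM in distal 2 and at 0.432 to 0.864 CPM in distal 3. Ttr differed in the primary libraries, where it held 3.57, 2.89 and 1.15 CPM, above all proximal libraries (0.235, 0.306 and 0.612 CPM). Its log2 fold change for proximal against primary was -2.71 (SE 0.98, edgeR adjusted p = 0.228). DESeq2 called it lower.

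Apolipoproteins package and direct lipids in the blood. Apoa1, the main protein of high-density lipoprotein (chromosome 9, 46228580 to 46230466), was at 49.7, 7.66 and 1.89 CPM in the distal libraries. It was at 0.107, 1.60 and 0.440 CPM in the primary and 1.77, 20.5 and 0.0979 CPM in the proximal libraries. Distal libraries were all above primary ones, but proximal 2 exceeded distal 2 and 3. The log2 fold change was 4.81 (SE 1.98, edgeR adjusted p = 0.271) against primary, and 2.78 without distal 1. Against proximal libraries it was 1.40 (SE 1.69, adjusted p = 1.0), with values of -0.64 without distal 1 and 4.40 without proximal 2, so single libraries decide its direction.

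Apob, the structural protein of low-density lipoprotein, was highest in proximal 2 (11.8 CPM) and primary 1 (10.9 CPM), followed by distal 1 (6.90 CPM). The others were 0.624 and 0.102 CPM in primary 2 and 3, 0.652 and 0.0489 CPM in proximal 1 and 3, and 2.05 and 0.399 CPM in distal 2 and 3. Apoc3, an inhibitor of lipoprotein lipase, was at 6.52 CPM in distal 1 and next highest, at 3.24 CPM, in proximal 2. Apoa5, which promotes clearance of triglycerides, held at most 0.312 CPM in the primary and proximal libraries and 2.15, 0.856 and 0.266 CPM in the distal ones. Its 0.153 CPM in proximal 2 lay close to the 0.147 CPM of proximal 3, unlike Apoa1 and Apoc3, its neighbours on chromosome 9.

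Markers of intestinal epithelium were split between proximal 2 and the primary libraries. Of the 6 markers, Fabp2, Lct, Sis and Alpi were highest in proximal 2, at 4.002, 5.84, 11.7 and 5.66 CPM, against at most 0.939 CPM in any other library. The most abundant markers of that list, Vil1 and Cdh17, were not, with up to 44.1 and 57.4 CPM in the primary libraries. The summed level of the list was 30.02 to 95.8 CPM in primary, 8.25 to 44.2 CPM in proximal and 11.97 to 16.1 CPM in distal libraries. Apoa4, an intestinal apolipoprotein of the wider plasma protein list, reached 44.8 CPM in proximal 2 and at most 5.20 CPM elsewhere. Cyp3a11, a drug-metabolising cytochrome that gut also expresses, held 143 counts (3.65 CPM) in proximal 2 and at most 20 in any other library. The part of intestinal material in these values was not tested.

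Apoa2 and Apoh completed the class. Apoa2, also a protein of high-density lipoprotein, was at 9.35 CPM in distal 1 and 0.576 to 2.24 CPM in the other 8 libraries. Apoh, the phospholipid-binding beta-2-glycoprotein I, held 6 counts over the proximal and 32 over the primary libraries, against 231 in distal 1. Its exons overlap those of Prkca on the other strand.

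Serine protease inhibitors showed the same order in the distal group. Serpina3k was at 15.3, 3.12 and 1.23 CPM in the distal libraries, 0.215, 1.25 and 0.237 CPM in the primary and 0.339, 0.229 and 0.294 CPM in the proximal ones. It separated distal from proximal libraries, while primary 2 lay just above distal 3. The log2 fold change was 3.55 (SE 1.07, edgeR adjusted p = 0.186) against primary and 4.49 (SE 1.12, adjusted p = 1.0) against proximal libraries, and 1.98 and 2.91 without distal 1. Serpina3m overlaps its exons on the same strand, so reads in the overlap may have been left uncounted or may belong to either gene.

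Serpina1a to Serpina1d encode alpha-1-antitrypsin, the inhibitor of neutrophil elastase. Their coding sequences are 96.5% to 98.5% identical, against 62.1% to 62.3% with Serpina3k. Reads can therefore be split between these copies or left uncounted, which makes each single count uncertain. Summed, they held 17.6, 3.38 and 1.496 CPM in the distal libraries. The primary libraries held 0.268, 1.33 and 0.271 CPM and the proximal ones 0.183, 0.153 and 0.269 CPM, all below the distal range. Serpinc1, antithrombin, was at 5.72, 1.45 and 0.233 CPM in the distal libraries, with distal 3 below primary 2 (0.741 CPM), and Zbtb37 overlaps its exons on the other strand.

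The enzymes of amino acid and nitrogen metabolism were mixed. Bhmt, which remethylates homocysteine using betaine, held 5.82, 1.14 and 0.698 CPM in distal libraries and at most 0.273 CPM in the other 6. Its log2 fold change was 4.09 (SE 0.93, edgeR adjusted p = 0.129) against primary and 4.74 (SE 0.95, adjusted p = 1.0) against proximal libraries. Without distal 1 these were 2.63 and 3.27. Uox, urate oxidase, held 4.95, 1.62 and 0.731 CPM in distal, 0.375, 0.624 and 1.19 CPM in primary and 0.131, 0.0765 and 0.122 CPM in proximal libraries. Distal libraries overlapped primary ones but not proximal ones, with log2 fold changes of 1.74 (SE 0.73, edgeR adjusted p = 0.274) and 4.43 (SE 0.84, adjusted p = 1.0), or 0.71 and 3.38 without distal 1.

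Cps1, the first enzyme of the urea cycle, was at 8.05 CPM in distal 1 and 0.245 to 2.33 CPM in the other libraries. Tat, tyrosine aminotransferase, and Hpd, which acts after it in tyrosine breakdown, varied less between the distal libraries, at 4.75, 3.45 and 1.76 CPM and at 1.95, 1.17 and 1.13 CPM. Primary 1 held 3.59 CPM of Tat and 2.55 CPM of Hpd, above the other primary libraries.

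Tdo2, tryptophan 2,3-dioxygenase, which begins the breakdown of tryptophan (chromosome 3, 81957090 to 81976202), behaved differently from the plasma protein genes. It held 28.1, 32.9 and 25.6 CPM in distal, 30.04, 41.7 and 29.2 CPM in the proximal and 30.5, 0.897 and 4.44 CPM in the primary libraries. Primary 1 lay within the range of the metastases, and primary 2 and 3 lay below all others. The log2 fold change was 1.27 (SE 0.96, edgeR adjusted p = 0.444) for distal and 1.49 (SE 0.97, adjusted p = 0.374) for proximal against primary. Without primary 1 these were 3.44 and 3.66, with edgeR adjusted p values of 0.00927 and 0.00745, in fits that called 27.4% and 28.7% of all genes. Serpind1 (heparin cofactor II) and Fah (a tyrosine breakdown enzyme), genes of the wider lists picked here after their values were seen, had the same low libraries. Serpind1 stood at 0.702 and 4.88 CPM in primary 2 and 3 and at 34.2 to 80.1 CPM in the other 7, and Fah at 4.06 and 8.81 CPM against 30.5 to 39.5 CPM.

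The glucose production genes varied widely within groups or were scarce. Pck1, which encodes the cytosolic phosphoenolpyruvate carboxykinase (chromosome 2, 173153048 to 173159273), was at 49.7, 1.21 and 3.42 CPM in the primary, 8.80, 54.8 and 17.4 CPM in the proximal and 6.17, 1.71 and 36.9 CPM in the distal libraries. The 3 groups overlapped. The 6 adipocyte markers summed to 259, 8.11 and 58.4 CPM, 77.8, 357 and 137 CPM, and 1.05, 2.09 and 239 CPM in the same libraries. The list's most abundant members, Cfd and Cidec, were highest in proximal 2, at 268 and 33.9 CPM, while Lep was at or near 0 throughout. The part of fat tissue in the Pck1 values was not tested. G6pc, glucose-6-phosphatase, reached 1.27 CPM in distal 1 and at most 0.547 CPM elsewhere.

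Cyp2e1, an ethanol-metabolising cytochrome P450 (chromosome 7, 140763739 to 140774987), went the other way. It was at 34.2, 2370 and 598 CPM in the primary libraries, 18.5, 47.0 and 19.5 CPM in the proximal and 5.82, 3.35 and 22.4 CPM in the distal ones. Primary and distal libraries did not overlap, while proximal 2 exceeded primary 1. The log2 fold change was -6.57 (SE 1.55, edgeR adjusted p = 0.129) for distal and -5.14 (SE 1.45, adjusted p = 0.168) for proximal against primary. Without primary 2 it was -4.92 and -3.49, and without primary 1, in those same fits with many calls, the edgeR adjusted p values were 0.00526 and 0.00836. DESeq2 called both (adjusted p = 5.55e-07 and 2.19e-04). Prostate epithelium markers summed to 57.6, 633 and 627 CPM in primary 1, 2 and 3 and to 5.40 to 11.2 CPM in the metastases, and their part in the result was not tested. Because Cyp2e1 made up most of the summed member level in primary 2 and 3, the sum over all 33 members there, 2396 and 618 CPM, mostly follows it. In primary 1 the sum was 150 CPM and in the distal libraries 428, 118 and 122 CPM, of which Cyp2e1 was a small part in distal 1 and 2.

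Across the whole table, no member passed the edgeR test in any comparison. In distal against primary, 0 of the 31 members that passed the filter on low counts were called, where 0.0879% of all genes tested were. In proximal against primary it was 0 of 31, with 0.0494% of all genes, and in distal against proximal 0 of 31, with 0% of all genes. Serpina1c and Cyp3a11 did not pass the filter. The lowest edgeR adjusted p of a member was 0.120, 0.168 and 1.0 in these comparisons. Because a scarce gene could pass the filter through the libraries where it was high, the counts below describe the members and support nothing further.

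At an unadjusted p below 0.05, 18 of 31 members were higher and 1, Cyp2e1, lower in distal than in primary libraries, against 3.89% and 13.5% of all genes. In distal against proximal libraries 21 of 31 were higher and 0 lower, against 1.79% and 0.269%. In proximal against primary libraries 0 were higher and 3 lower (Cyp2e1, Uox and Ttr), against 3.86% and 14.3%. With no filter, so that all 33 were tested, 22 were higher and 1 lower in distal against primary libraries (3.52% and 9.83% of all genes). Without distal 1, 9 of 31 were higher than in primary libraries (2.59% of all genes) and 15 of 31 higher than in proximal ones (2.96%).

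The median log2 fold change of the members was 2.64 for distal against primary, 3.30 for distal against proximal and -0.68 for proximal against primary. The medians of all genes tested were -0.03, -0.01 and -0.05. Without distal 1 the first pair of member medians was 1.55 and 1.79. The median for proximal against primary was 0.03 without primary 2 and -1.36 without proximal 2, so its direction rested on 1 library. Every distal library was above every primary one for 11 of 31 members (8.29% of all genes) and above every proximal one for 18 of 31 (3.96%). The reverse held for 1 (10.4%) and 0 (3.64%). Every proximal library was below every primary one for 4 of 31 (10.7%), a share near that of all genes, and above for 0 (8.74%). Both comparisons against primary share the primary libraries, and both distal ones the distal libraries.

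**Figure D3:**
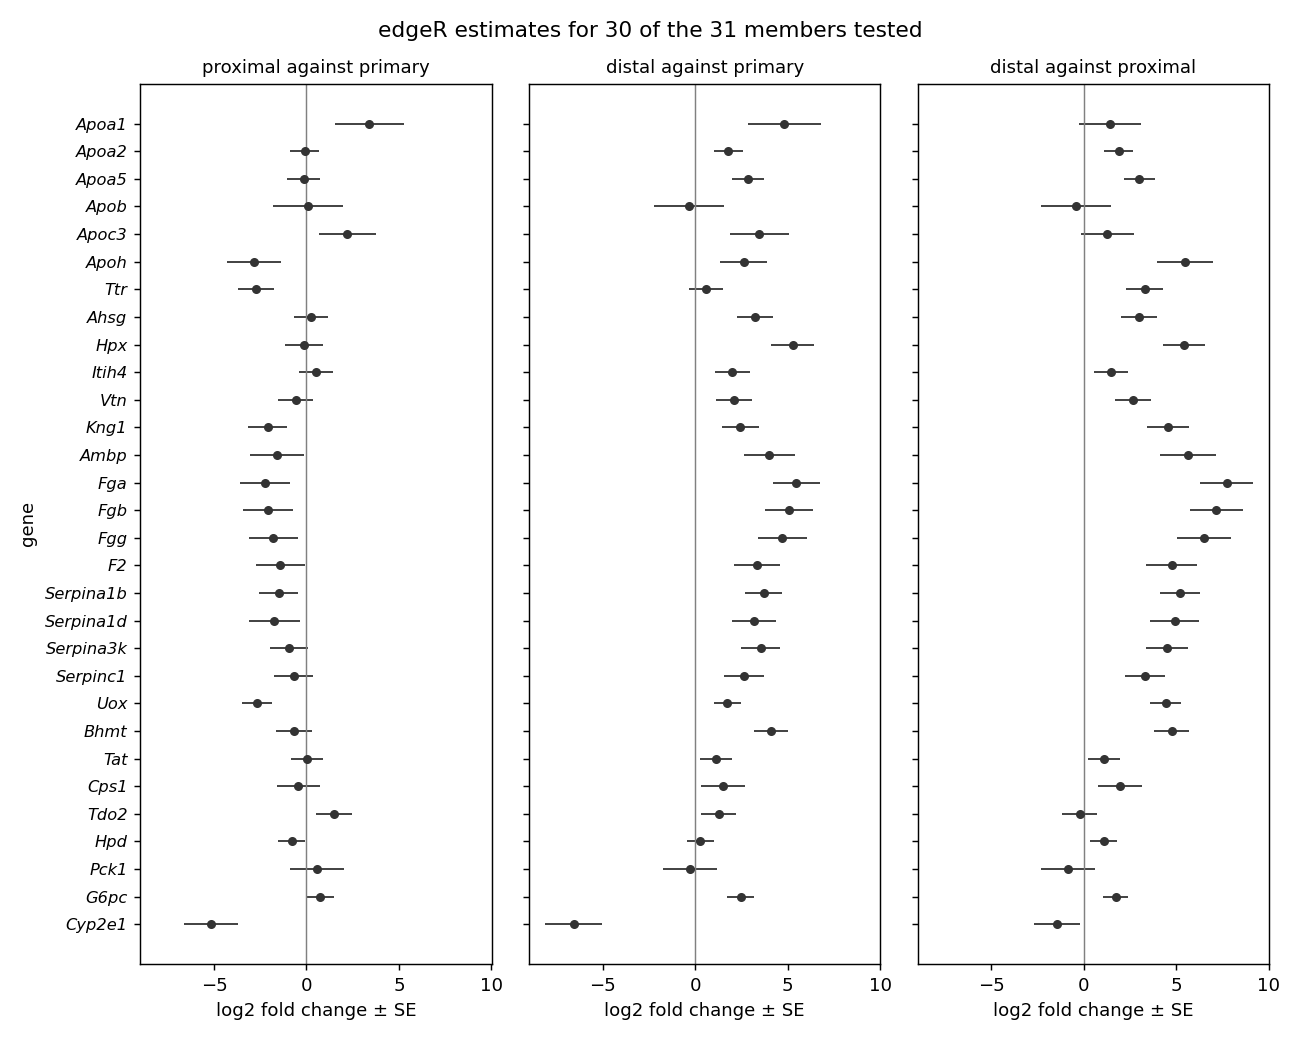
edgeR log2 fold changes with SE for 30 of the 31 members tested in the 3 comparisons. Serpina1a, with 1 count over the proximal libraries, is not drawn; most points lie above 0 in both distal comparisons, none passes an adjusted p of 0.05, and Cyp2e1 lies lowest against primary.

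DESeq2 made calls where edgeR made none. In distal against primary it called 11 members higher (Fga, Fgb, Fgg, Hpx, Ahsg, Ambp, Apoa1, Apoa5, Bhmt, Serpina1b and Serpina3k), against 1.09% of all genes, and Cyp2e1 lower (6.39%). In distal against proximal it called 13 higher, against 0.584%: the fibrinogen chains, Hpx, Ambp, Apoh, Bhmt, F2, Kng1, Serpina1b, Serpina1d, Serpina3k and Uox. It called 0 lower there (0.0574% of all genes). In proximal against primary it called 3 lower (Cyp2e1, Ttr and Uox), against 6.85%, and 0 higher (0.601%). Without primary 1, edgeR called 7 members in distal against primary (Bhmt, Fga, Fgb, Hpx, Tat and Tdo2 higher, Cyp2e1 lower), which is 21.2% of the 33 tested in that fit, against 27.4% of all 19009 genes. In proximal against primary it then called 3 members (Tdo2 higher, Cyp2e1 and Uox lower), or 9.09%, against 28.7% of all genes. Over higher and lower calls together, the share of members was below that of all genes in each comparison. By direction, 6 of 33 members and 2516 of 19009 genes were higher in distal than in primary libraries. There the share of members was above that of all genes. Lower were 1 member and 2687 genes. In proximal against primary, 1 member and 2622 genes were higher, and 2 members and 2825 genes lower.

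The members highest in distal 1 came from all roles except the cytochromes P450, and most shared an order within the distal group. The summed levels of the cytochromes and of the glucose production genes were instead highest in distal 3 among the distal libraries. Of the 27 members highest in distal 1, 26 were ordered distal 1, distal 2, distal 3, Itih4 being the exception. Over the 24 of them with at least 100 counts in distal 1, the level there was 1.38 to 6.93 times that of distal 2, with a median of 4.96, and 1.42 to 26.3 times that of distal 3, with a median of 13.4. The lowest ratio to distal 2 was that of Tat and the highest that of Apoh. Hpx was 5.82 times as high in distal 1 as in distal 2 (95% interval 5.22 to 6.51), Ahsg 4.71 times (4.27 to 5.20) and Apoa1 6.49 times (5.77 to 7.33). Their ratios to distal 3 spread more: 19.7 for Hpx (15.7 to 24.9), 8.38 for Ahsg (7.24 to 9.74) and 26.3 for Apoa1 (20.2 to 34.8). Among all 18204 genes tested, 966 were highest in distal 1. Of these 966, 488 (2.68% of all tested) were also ordered in this way, 25 of them members. The 27 members were picked by their highest library, so the 966 genes are the set to read them against.

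**Figure D4:**
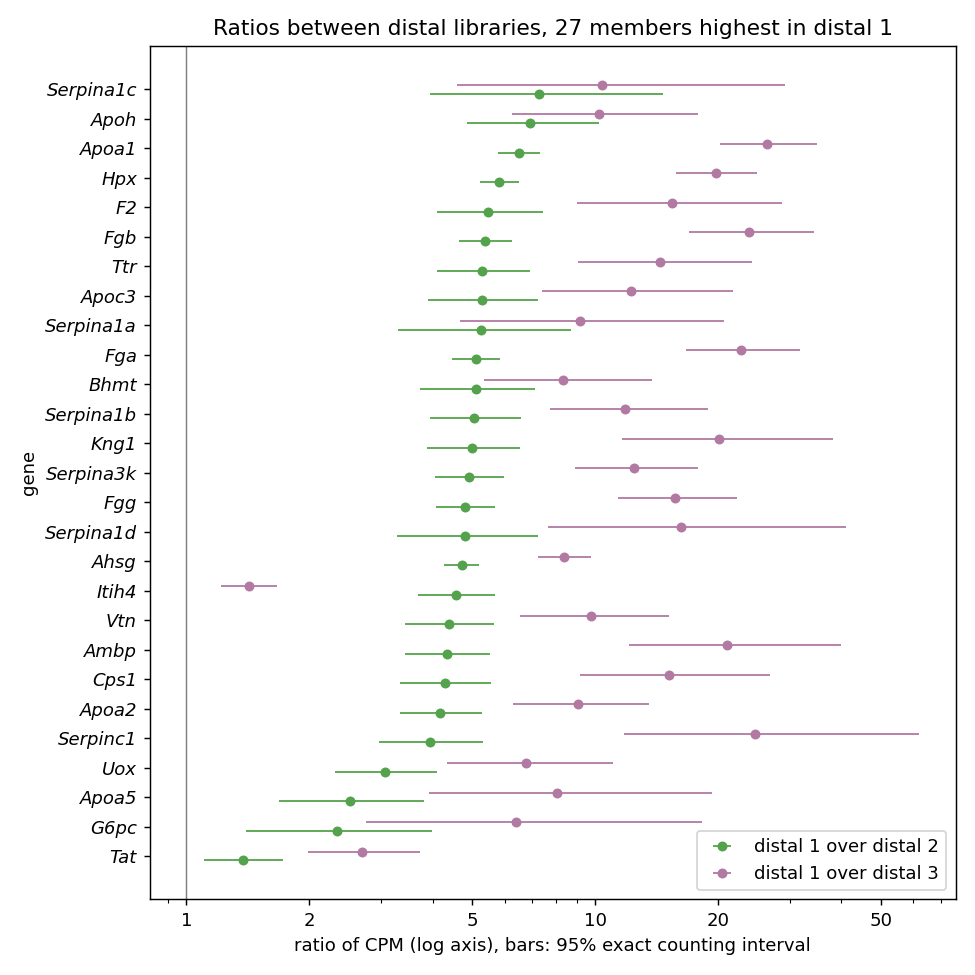
Ratio of the distal 1 level to distal 2 and to distal 3 for the 27 members highest in distal 1, on a log axis, with 95% intervals that cover counting error only. Tat has the lowest ratio to distal 2 and Itih4 the lowest to distal 3, and the ratios to distal 3 spread more than those to distal 2.

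Per length, the most abundant of the plasma protein members in distal 1 were Apoa1 at 40.2, Hpx at 34.9, Ahsg at 25.1 and Apoa2 at 17.4 CPM per kilobase of exon. In the same library Serpinc1 and Apoa5 stood at 0.670 and 0.852 CPM per kilobase, although each was highest there too. These values depend on the length used, all annotated exons joined, which was 8546 bases for Serpinc1 and 2522 bases for Apoa5.

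The wider lists of liver products were read beside the members. Of 24 other plasma protein genes, 18 were tested and none was called by edgeR in any comparison, and 12 were highest in distal 1. Among them Plg (plasminogen), named here after its values were seen, was at 10.0, 3.09 and 0.831 CPM in the distal libraries and at most 2.13 CPM elsewhere. The most abundant members of that list followed other patterns: Cp (ceruloplasmin) reached 2162 CPM in primary 2, and Trf (transferrin) was at 82.1 CPM in distal 1 but 60.0 CPM in distal 3 and 53.3 CPM in proximal 2. Of 24 other liver enzymes and transporters, 16 were tested, none was called and 14 were highest in distal 1. Most of those were scarce there, such as Cyp7a1, the first enzyme of bile acid synthesis, with 3 counts.

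Acute phase genes were split between libraries. Of 12, 8 were tested, none was called, 5 were highest in distal 1 and 5 in primary 2. Of all genes tested, 5.31% were highest in distal 1 and 28.7% in primary 2. Lcn2 and Lbp, the latter encoding the lipopolysaccharide binding protein, were at 906 and 86.8 CPM in primary 2, against 138 and 49.6 CPM in distal 1. Among the 5 highest in distal 1, Orm1 and Apcs were at 4.47 and 2.92 CPM there. They held at most 0.644 and 0.0510 CPM in primary and proximal libraries. For these 2 genes, named after their values were seen, every distal library was above every other library. Gc, the vitamin D binding protein, was at 28.4, 5.16 and 1.93 CPM in the distal libraries and at most 1.48 CPM elsewhere, and was likewise named after its values were seen. Its relative Alb was not part of that pattern, at 5232 to 7567 CPM in all 6 metastases and 4030, 114 and 648 CPM in the primary libraries, while Afp stayed at or below 1.63 CPM.

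Of 13 transcription factors of the liver, none was highest in distal 1, where 5.31% of all genes tested were. At that share a list of 13 can hold none, so the count does not set these factors apart. Of the 9 tested, edgeR called none in any comparison, where it called at most 0.0879% of all genes. Hnf4a was at 54.3 CPM in primary 1 and at most 2.19 CPM elsewhere, with 1.75, 0.571 and 0.299 CPM in distal 1, 2 and 3. Onecut1 had no count in any library. Foxa2 and Prox1, the most abundant factors of the list, were at 131 to 174 CPM and 1070 to 1485 CPM in the metastases. They were at 133 and 1197 CPM in primary 1 and at 10.1 and 44.9 CPM in primary 2. The whole list summed to 1440, 72.3 and 302 CPM in primary 1, 2 and 3. In the metastases it summed to 1246 to 1688 CPM, a range that holds primary 1 but not primary 2 and 3.

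**Figure D5:**
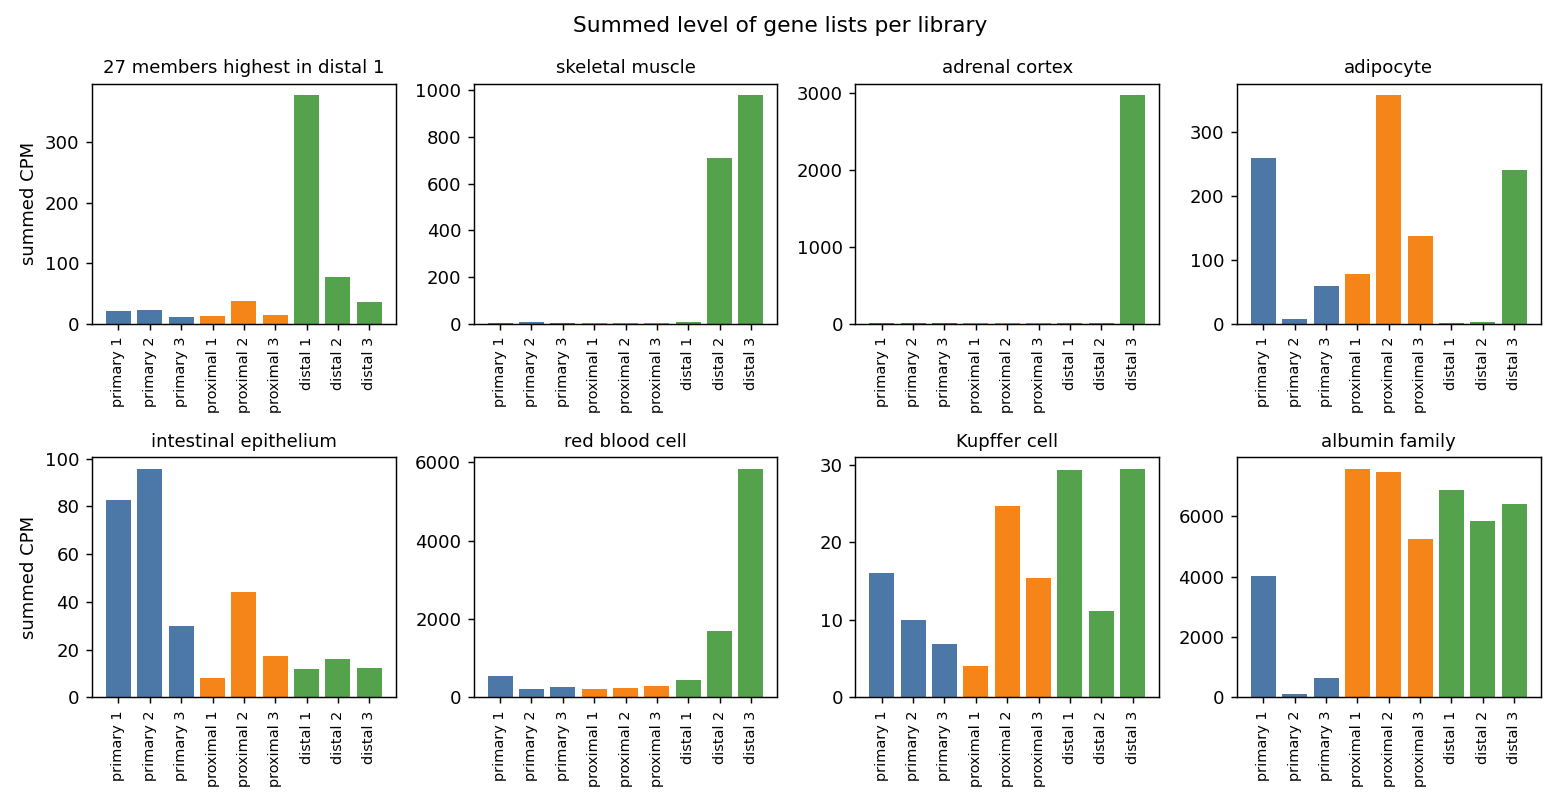
Summed CPM (bars, linear axes from 0 that differ between panels) of the 27 members highest in distal 1 and of 7 other gene lists in each of the 9 libraries. Skeletal muscle markers are high in distal 2 and 3, adrenal cortex markers in distal 3, and neither is raised in distal 1, where the 27 members reach 378 CPM.

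Markers of other cells of the liver were read in the same libraries. The 6 Kupffer cell markers summed to 6.94 to 16.0 CPM in primary, 4.07 to 24.6 CPM in proximal and 29.4, 11.1 and 29.5 CPM in distal 1, 2 and 3. Clec4f, the defining marker, was at or below 0.125 CPM everywhere, and the most abundant, Marco and Folr2, were at 18.1 and 2.65 CPM in distal 1. The sinusoid endothelium list summed to 64.1, 93.7 and 81.8 CPM in the distal libraries, 53.1 to 86.5 CPM in the proximal and 13.6 to 111 CPM in the primary ones, and its most abundant genes were Gpr182 and Fcgr2b. Stellate cell markers (led by Vipr1 and Ngfr) summed to 20.6 to 32.0 CPM in distal, 20.4 to 29.4 CPM in proximal and 35.0 to 100 CPM in primary libraries. Bile duct markers (led by Krt19 and Krt7) summed to 303 to 455, 249 to 366 and 444 to 5615 CPM in the same groups. The lowest distal value of the bile duct list was that of distal 1.

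Markers of other tissues were read in the same way. Kidney tubule markers summed to at most 0.949 CPM in every library. The surfactant genes Sftpc and Sftpb, defining markers of lung epithelium, were at or below 0.075 CPM in every library. The lung list as a whole summed to 1.59 to 1.82 CPM in distal, 1.80 to 3.08 CPM in proximal and 2.82 to 20.9 CPM in primary libraries. Red blood cell markers, led by Hbb-bs and Hbb-bt, summed to 443, 1696 and 5832 CPM in distal 1, 2 and 3, the reverse of the order of the members. In the primary and proximal libraries they summed to 210 to 536 CPM. Mesothelial markers, led by Msln and Upk3b, summed to 133 to 210 CPM in distal, 75.6 to 258 CPM in proximal and 42.4 to 136 CPM in primary libraries. The part of liver cells or of any other tissue in the distal levels of the members was not tested.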

How the data were processed

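The deposited files hold raw, whole-number counts per Ensembl gene, 1 file per library. The submitters' processing notes list HTSeq 0.6.0, TopHat2 2.1.0, FastQC 0.11.4, DESeq2 1.14.1, Bowtie2 2.2.6.0 and R 3.2.3, and the build GRCm38.p3. The sources used here do not give the strand setting, annotation release or read filters. Of 47069 identifiers, 46488 were matched to a symbol. No pair of libraries agreed within sampling noise (lowest chi-square per gene 23.0).

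Genes were filtered with filterByExpr (minimum count 10, minimum total 15): 18204 passed and 28865 did not. edgeR 4.0.16's quasi-likelihood test (R 4.3.3) was fitted on all 9 libraries with TMM scaling and 6 residual degrees of freedom. Calls were made at a Benjamini-Hochberg adjusted p below 0.05 over all genes. SE, the standard error, was taken as the size of the log2 fold change over the root of its F statistic. Alternatives were DESeq2 1.42.0, limma-voom (limma 3.58.1), 2 other scalings, 2 other filters, a fit of the compared groups alone and each library left out. Positions and exon lengths are from GENCODE on GRCm38, and promoters from RefSeq. The exon length of a gene joins the exons of all its transcripts, so it can exceed the length of any single transcript. The coding identity of the Serpina genes used the longest open reading frame of each.

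Members, lists and roles were chosen with earlier results of these data known. Values in every library were given for members at 10 CPM or more in any library and others by range. Of each other list the most abundant genes were named. Other genes of those lists (such as Plg, Gc, Apoa4, Hnf4a and the defining markers) were named after their values were seen. The other engineered allele is not reported here.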

Additional observations from a re-analysis of the deposited data

How the results depend on the processing

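No member was called in any comparison with median-ratio size factors, library totals alone, limma-voom, either other filter or the compared groups alone. DESeq2 called 3 members in proximal against primary, 12 in distal against primary and 13 in distal against proximal. Leaving out 1 library gave 0 to 3, 0 to 7 and 0 to 0 members. The members highest in a distal library numbered 27, and 21 without distal 1. Among all genes, edgeR called 9, 16 and 0 in these comparisons, and leaving out 1 library gave 0 to 5447, 0 to 5203 and 0 to 38. In proximal against primary, 15 genes were called with median-ratio size factors, 1512 with DESeq2, 1 with limma-voom, 26 without a filter, 23 at 1 CPM in 3 libraries and 0 with the compared groups alone. In distal against primary, 10 were called with library totals alone, 1517 with DESeq2, 1 with limma-voom and 0 with the compared groups alone. In distal against proximal, DESeq2 called 134. Without proximal 2 and distal 1 together, chosen after seeing the data, 0, 15 and 4 genes and no member were called. Fold changes were recomputed for 12 of the members, and among these Apoa1 in distal against proximal reversed, at -0.64 without distal 1 and 4.40 without proximal 2 (1.40 over all libraries). The member median for proximal against primary moved from -0.68 to 0.03 without primary 2. Causes were not tested. No paired analysis was possible because the labels do not say which samples share a mouse. Most members hold fewer than 100 counts in primary and proximal libraries, which limits their fold changes.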
